A study of Homo sapiens with 12 samples.

Results

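Mast cell granules hold a small set of proteases and amines, and 10 genes of that set were described across 4 sublines of the human mast cell line HMC-1. They were TPSAB1, TPSB2, TPSD1 and TPSG1, which encode tryptases, CPA3, CMA1, CTSG and GZMB, which encode other granule proteases, and HDC and SLC18A2, which make and store histamine. The genes were chosen by symbol from what they are known for, with earlier results of these data known. Each of the 10 was on a single row among the 58381 genes of both deposited tables. Of the 10, 8 had enough counts to be tested, and CMA1 and CTSG did not.

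HMC-1 is an established line from a mast cell leukemia whose cells grow without added growth factor. HMC-1.1 cells carry the V560G variant of the receptor tyrosine kinase KIT, and HMC-1.2 cells carry V560G together with D816V. HMC-1.3 clone 1 and HMC-1.3 clone 2 were made from HMC-1.2 by CRISPR/Cas9 editing that removed the V560G variant, so that they carry D816V without V560G. Each of these is 1 clone, obtained by drug selection and limiting dilution, so the edit, the cloning and later drift in culture cannot be told apart. No group carried unmutated KIT alone, and the gene counts do not show the genotype. Each group had 3 libraries of polyadenylated RNA from 3 culture wells, so p-values measure the spread between wells of the same line. The libraries held 29225900 to 43181402 counts, and 3 of them, 1 each of HMC-1.2, clone 1 and clone 2, were labelled as resent.

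Tryptases are trypsin-like serine proteases stored with serglycin and heparin in the granules, and they are the most widely used marker of mast cells in tissue and serum. Chymase, cathepsin G and mast cell carboxypeptidase join them in the mast cells of connective tissue. Histidine decarboxylase makes histamine in the cytosol, and the vesicular monoamine transporter VMAT2 pumps it into the granules.

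HMC-1.2 cells differed from the other sublines in 6 of the 8 tested genes, with less CPA3 and more TPSAB1, TPSB2, TPSG1 and SLC18A2, while GZMB was highest in clone 2. TPSAB1 averaged 592 FPKM in HMC-1.2, against 37.2 in HMC-1.1 cells, 44.2 in clone 1 and 29.4 in clone 2. FPKM values are scaled to transcript length and library size, so levels can be compared between genes. Calls required a fold over 1.5 together with an adjusted p under 0.05, taken from the quasi-likelihood test of edgeR and corrected by the Benjamini-Hochberg method over all 15944 genes tested. By this rule clone 1 had 1 gene higher and 5 lower than HMC-1.2, clone 2 had 2 higher and 4 lower, and HMC-1.1 had 1 higher and 5 lower. In bulk RNA, fewer cells that express a gene and less RNA per cell cannot be told apart.

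These counts stand against many calls among all genes. In clone 1 against HMC-1.2, 20.0% of all genes tested were called, 11.8% as higher and 8.18% as lower. In clone 2 against HMC-1.2 the share was 16.5%, with 7.98% higher and 8.51% lower. For HMC-1.1 compared with HMC-1.2 it was 17.6%, with 10.1% higher and 7.52% lower. The median log2 fold change of the 8 genes was -0.98, -0.83 and -1.09 in these comparisons, beside 0.01, -9e-05 and 0.01 over all genes. Since all 3 comparisons use the same HMC-1.2 libraries, they are not independent of each other. In 5 genes every HMC-1.2 library lay above the other 9 libraries, as in 17.2% of all genes, and in CPA3 every HMC-1.2 library lay below them, as in 17.5% of all genes.

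**Figure D1:**
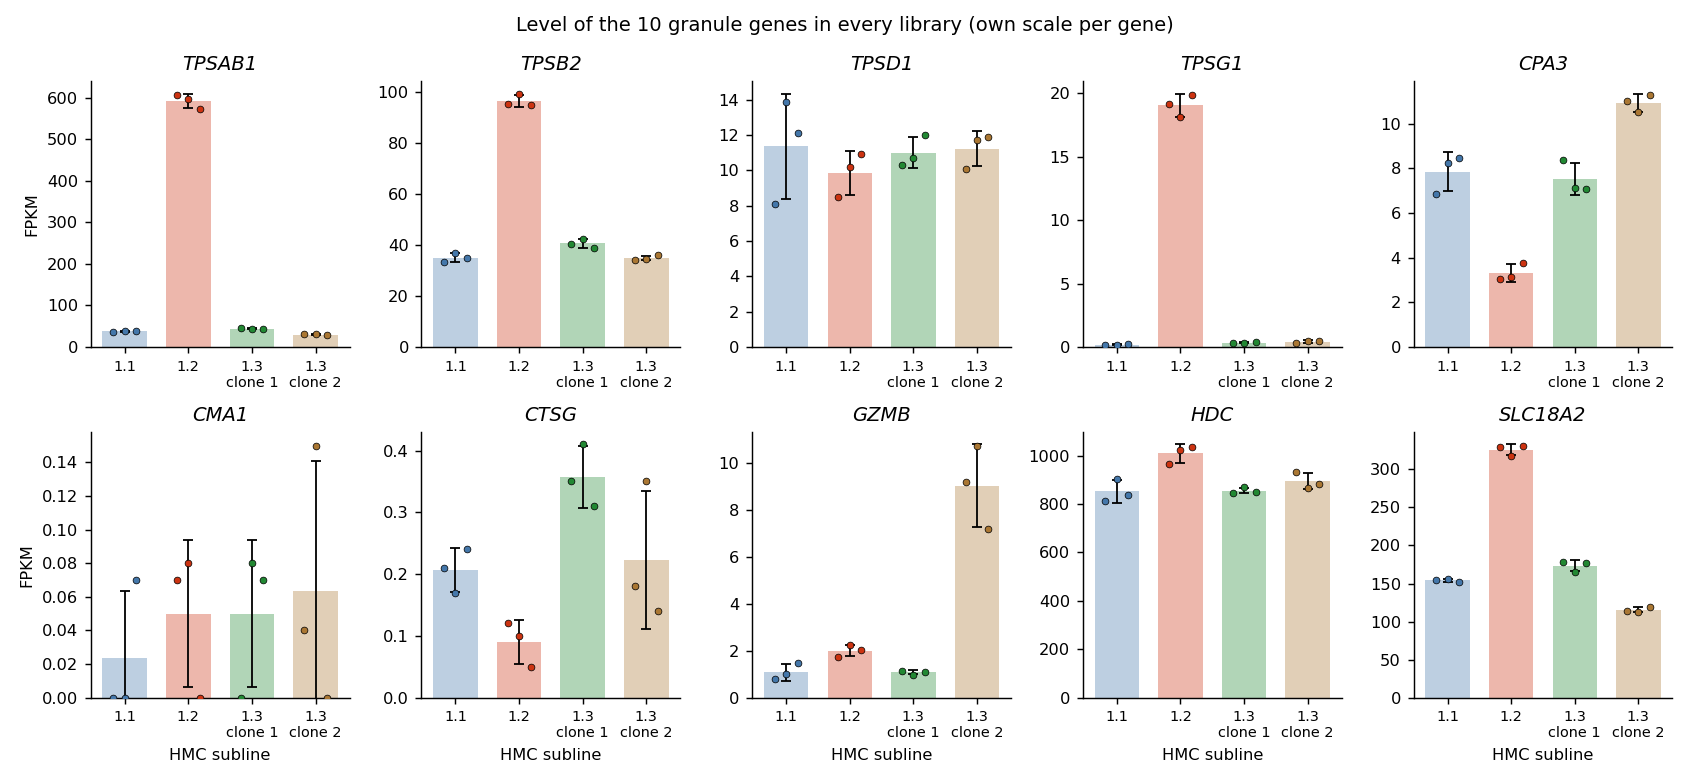
FPKM of each of the 10 genes (y axis, own scale per gene, from 0) in the 4 sublines (x axis); points are the 3 libraries of a subline, bars their mean and error bars the SD, cut off at 0. HMC-1.2 stands above every other library for TPSAB1, TPSB2, TPSG1, HDC and SLC18A2 and below for CPA3, and clone 2 is highest for GZMB.

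Levels spanned a wide range within each subline. HDC averaged 852 FPKM in HMC-1.1 cells, 1009 in HMC-1.2 cells, 856 in clone 1 and 895 in clone 2, which placed it between rank 120 and rank 136 of the genes with a value above 0. CMA1 averaged between 0.0233 and 0.0633 FPKM. Summed over the 10 genes, the level was 1099 ± 53.6 FPKM in HMC-1.1 cells, 2058 ± 24.5 in HMC-1.2 cells, 1134 ± 6.56 in clone 1 and 1107 ± 33.4 in clone 2 (SD, n = 3). HDC made up the largest part of this sum in each subline, and the 8 protease genes added 723 ± 15.8 FPKM in HMC-1.2 against 93.0 ± 6.69 in HMC-1.1 cells, 105 ± 2.06 in clone 1 and 96.3 ± 2.38 in clone 2.

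The largest difference among the proteases was in TPSG1, which encodes gamma tryptase, the form that stays anchored to the membrane. Its 3 HMC-1.2 libraries had 19.2, 18.1 and 19.9 FPKM, against 0.18, 0.14 and 0.21 in HMC-1.1 cells, 0.30, 0.31 and 0.40 in clone 1 and 0.33, 0.50 and 0.45 in clone 2. Every HMC-1.2 library lay far above the other 9, which held 4 to 17 counts each against 482 to 602. TPSG1 fell, with log2 fold changes of -6.06 ± 0.18 in clone 1 (SE, adjusted p = 2.9e-14, edgeR), -5.46 ± 0.17 in clone 2 (adjusted p = 4e-14, edgeR) and -6.76 ± 0.20 in HMC-1.1 (adjusted p = 1.7e-14, edgeR). Counted from the most negative, these changes ranked 34, 58 and 22 of the 15944 genes. On the log2(FPKM + 1) scale with limma they came to -3.91, -3.82 and -4.09, since that scale shrinks changes to values under 1.

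TPSAB1, which encodes alpha or beta tryptase depending on the allele, had 607, 596 and 573 FPKM in HMC-1.2. The libraries of HMC-1.1 had 35.9, 37.6 and 38.2 FPKM, those of clone 1 45.2, 44.4 and 42.9, and those of clone 2 30.2, 30.4 and 27.6. HMC-1.2 was followed by clone 1, HMC-1.1 and clone 2 in this order, and no library of 1 subline reached into the range of the next. TPSAB1 fell, with log2 fold changes of -3.83 ± 0.04 in clone 1, a 14.3-fold difference (SE, adjusted p = 1e-19, edgeR), -4.41 ± 0.05 or 21.2-fold in clone 2 (adjusted p = 3.5e-20, edgeR) and -4.07 ± 0.04 or 16.8-fold in HMC-1.1 (adjusted p = 5.6e-20, edgeR). By level, TPSAB1 ranked 169 of 23793 genes in HMC-1.2 and 3936 of 24078 in clone 2.

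TPSB2, which encodes beta tryptase, had 95.5, 99.5 and 95 FPKM in HMC-1.2, against 33.5, 37.0 and 34.8 in HMC-1.1 cells, 40.6, 42.5 and 38.9 in clone 1 and 34.3, 34.7 and 36.0 in clone 2. HMC-1.2 was again above all other libraries, clone 1 came next, and HMC-1.1 and clone 2 overlapped. TPSB2 fell, with log2 fold changes of -1.3 ± 0.04 in clone 1 (SE, adjusted p = 1.2e-13, edgeR), -1.49 ± 0.04 in clone 2 (adjusted p = 2.6e-14, edgeR) and -1.51 ± 0.04 in HMC-1.1 (adjusted p = 2.2e-14, edgeR).

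TPSD1 encodes delta tryptase, a shortened form with little protease activity. It had 8.48, 10.2 and 10.9 FPKM in HMC-1.2, 8.07, 13.9 and 12.1 in HMC-1.1 cells, 10.3, 10.7 and 12.0 in clone 1 and 10.1, 11.7 and 11.9 in clone 2. All 4 sublines overlapped. Against HMC-1.2 its log2 fold change was 0.11 in clone 1 (95% interval -0.17 to 0.40), 0.16 in clone 2 (-0.12 to 0.44) and 0.15 in HMC-1.1 (-0.13 to 0.43), with adjusted p of 0.52, 0.37 and 0.40 (edgeR).

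TPSAB1, TPSB2 and TPSD1 share stretches of identical sequence, and the counting program divides reads that fit several genes among them by an estimate. In the Gencode transcripts, 51.6% of the stretches of 100 bases in TPSAB1 also occurred in TPSB2, 58.9% of those in TPSB2 also occurred in TPSAB1, and 7.6% of those in TPSD1 occurred in another tryptase gene, while TPSG1 shared none. In stretches of 31 bases the share for TPSD1 was 24.6%. Of the stretches of 100 bases in TPSAB1, 7.8% occurred in TPSD1. The split among the 3 genes is therefore uncertain, and so is the level of TPSD1. Summed to 1 feature, the 3 genes had 698 ± 16.8 FPKM in HMC-1.2 cells, 83.7 ± 5.70 in HMC-1.1 cells, 95.9 ± 1.86 in clone 1 and 75.7 ± 1.12 in clone 2 (SD, n = 3). The summed counts fell, with log2 fold changes of -2.89 ± 0.04 in clone 1 (SE, adjusted p = 2.1e-18, edgeR), -3.19 ± 0.04 in clone 2 (adjusted p = 8.2e-19, edgeR) and -3.07 ± 0.04 in HMC-1.1 (adjusted p = 1.2e-18, edgeR).

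As divided by the authors' counting, the make-up of this sum also differed. TPSAB1 held 84.7% ± 0.542 of the summed FPKM in HMC-1.2 cells, 44.5% ± 1.97 in HMC-1.1 cells, 46.1% ± 0.826 in clone 1 and 38.8% ± 2.08 in clone 2 (SD, n = 3). The counts of TPSAB1 were 6.15 ± 0.202 times those of TPSB2 in HMC-1.2, against 1.05 ± 0.0403 in HMC-1.1 cells, 1.07 ± 0.0370 in clone 1 and 0.818 ± 0.0693 in clone 2. TPSD1 made up 1.41% ± 0.205 of the sum in HMC-1.2 and between 11.5% and 14.9% in the others.

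**Figure D2:**
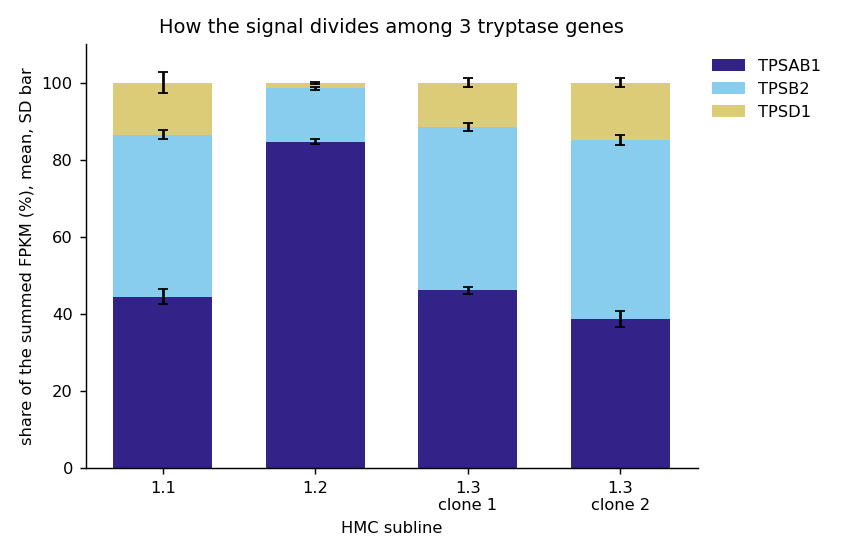
Share of the summed FPKM of 3 tryptase genes (y axis, percent) in the 4 sublines (x axis); coloured segments are the means of 3 libraries and error bars the SD. TPSAB1 takes 84.7% in HMC-1.2 and 38.8% to 46.1% elsewhere, and reads common to the genes make the split an estimate.

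The 4 tryptase genes lie within 37358 bases of chromosome 16 in the order TPSG1 (ENSG00000116176.6, chr16:1221651-1225268, minus strand), TPSB2 (ENSG00000197253.13, chr16:1227272-1230184, minus strand), TPSAB1 (ENSG00000172236.16, chr16:1240379-1242554, plus strand) and TPSD1 (ENSG00000095917.13, chr16:1256059-1259008, plus strand) on GRCh38. The gene before TPSG1 differed from HMC-1.2 in the opposite direction. CACNA1H, a calcium channel gene whose end overlaps TPSG1 by 121 bases on the opposite strand, had 4.58 ± 0.442 FPKM in HMC-1.2 cells, 9.58 ± 0.192 in HMC-1.1 cells, 10.2 ± 0.792 in clone 1 and 7.26 ± 0.690 in clone 2. It rose by 1.12 on the log2 scale in clone 1 (adjusted p = 2e-12, edgeR), by 0.64 in clone 2 (adjusted p = 5.2e-09, edgeR) and by 1.04 in HMC-1.1 (adjusted p = 6.1e-12, edgeR). The libraries were made with a strand-specific kit, but the strand setting of the counting is not given in the sources used here, so reads in the overlap of TPSG1 and CACNA1H cannot be assigned with certainty.

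**Figure D3:**
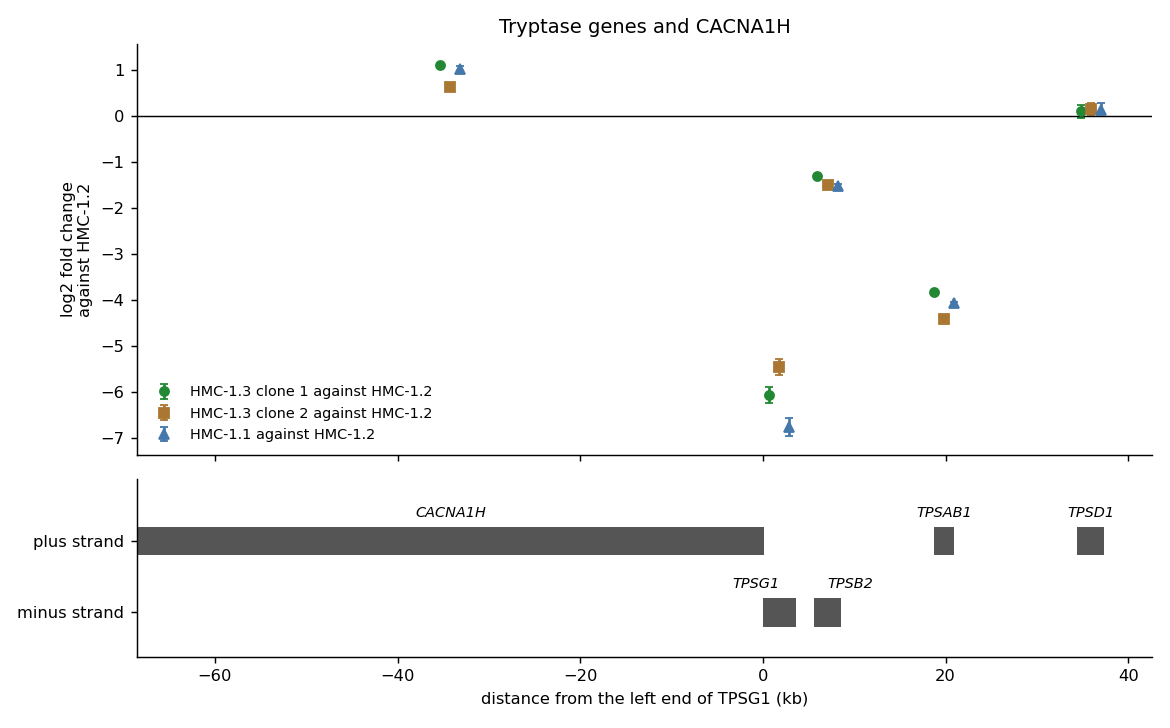
Upper panel: log2 fold change against HMC-1.2 (y axis, point with SE) of the 4 tryptase genes and of CACNA1H, placed by distance from the left end of TPSG1 (x axis, kb), for clone 1, clone 2 and HMC-1.1. Lower panel: the genes drawn to scale on their strands; TPSG1, TPSB2 and TPSAB1 are lower than in HMC-1.2, TPSD1 lies near 0, and CACNA1H is higher.

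CPA3 (ENSG00000163751.3, chr3:148865296-148897203, plus strand), the mast cell carboxypeptidase that trims peptides from their C-terminal end, went the other way. Its HMC-1.2 libraries had 3.04, 3.14 and 3.75 FPKM, against 6.86, 8.23 and 8.47 in HMC-1.1 cells, 8.37, 7.12 and 7.08 in clone 1 and 11, 10.5 and 11.3 in clone 2. HMC-1.2 lay below all other libraries, HMC-1.1 and clone 1 overlapped, and clone 2 was highest. CPA3 rose by 1.21 ± 0.09 on the log2 scale in clone 1 (SE, adjusted p = 2.7e-09, edgeR), by 1.78 ± 0.08 in clone 2 (adjusted p = 1.2e-11, edgeR) and by 1.2 ± 0.09 in HMC-1.1 (adjusted p = 3.5e-09, edgeR).

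The sequences upstream of CPA3, the gene that was lower in HMC-1.2, and of TPSG1, the gene with the largest difference in the opposite direction, are shown for comparison. Each is the 250 bases before the start of the gene in RefSeq on GRCh38.p14, for CPA3 chr3:148865046-148865295 on the plus strand and for TPSG1 chr16:1225269-1225518 on the minus strand. Capitals mark matches on either strand to a GATA motif, searched as AGATAA, with its variants AGATAG and also TGATAA and further TGATAG, or to an E-box motif, searched as CACGTG and its variant CATGTG.
CPA3: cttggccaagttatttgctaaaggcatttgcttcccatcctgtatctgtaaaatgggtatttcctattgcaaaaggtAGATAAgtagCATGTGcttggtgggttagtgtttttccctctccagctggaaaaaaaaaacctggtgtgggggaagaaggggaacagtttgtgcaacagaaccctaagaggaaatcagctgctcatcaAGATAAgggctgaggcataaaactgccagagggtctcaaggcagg
TPSG1: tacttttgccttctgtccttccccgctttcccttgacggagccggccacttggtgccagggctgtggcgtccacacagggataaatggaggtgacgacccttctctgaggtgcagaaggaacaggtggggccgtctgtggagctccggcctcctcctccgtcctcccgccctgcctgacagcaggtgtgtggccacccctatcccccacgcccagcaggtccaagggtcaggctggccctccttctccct
CPA3 held GATA motifs 173 and 45 bases before its start and an E-box 163 bases before it, which do not overlap, and TPSG1 held neither motif. Among the 35116 promoters of the same length, 22.3% held such a GATA motif and 15.2% such an E-box. A RUNX motif (TGTGGT, either strand), which 11% of all promoters held, was found in the promoters of GZMB (190 and 93 bases before the start), HDC (135 bases) and CMA1 (69 bases). A match of letters does not show that a factor binds there. Promoters of 7 of the 10 genes were searched, and TPSAB1, TPSB2 and TPSD1 were not among them.

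CMA1, which encodes chymase (ENSG00000092009.10, chr14:24505353-24508265, minus strand), and CTSG, which encodes cathepsin G (ENSG00000100448.3, chr14:24573518-24576250, minus strand), lie in a cluster with GZMB and were near the limit of detection. CMA1 had 0 to 4 counts in each of the 12 libraries, and 11 counts of CMA1 were seen in all of them together. CTSG had 5, 4 and 6 counts in HMC-1.1 cells, 3, 2 and 1 in HMC-1.2, 8, 10 and 7 in clone 1 and 4, 9 and 4 in clone 2. The CTSG counts of HMC-1.2 lay below those of all the other libraries. Scaled to library size, CTSG stood in clone 1 at 3.78 times its level in HMC-1.2 (95% interval 1.51 to 11.3, counting error only), in clone 2 at 2.35 times (0.883 to 7.27) and in HMC-1.1 at 2.17 times (0.794 to 6.81). The interval for clone 1 left out 1 and the other intervals included it, and without a filter on low counts no comparison of CTSG against HMC-1.2 passed the test (adjusted p of 0.067, 0.36 and 0.43, edgeR).

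GZMB (ENSG00000100453.12, chr14:24630954-24634267, minus strand) encodes granzyme B, best known from cytotoxic lymphocytes and also described in mast cells, and of the 8 tested genes it differed most between the edited clones. Its libraries had 9.18, 10.7 and 7.19 FPKM in clone 2, 1.14, 0.98 and 1.1 in clone 1, 1.74, 2.22 and 2.03 in HMC-1.2 and 0.78, 0.99 and 1.47 in HMC-1.1. Clone 2 lay above all other libraries, HMC-1.2 came next, and clone 1 and HMC-1.1 overlapped. Against HMC-1.2, GZMB rose by 2.14 ± 0.22 on the log2 scale in clone 2 (SE, adjusted p = 2.7e-07, edgeR), while it fell by 1.00 ± 0.27 in clone 1 (adjusted p = 0.0043, edgeR) and by 1.06 ± 0.27 in HMC-1.1 (adjusted p = 0.0032, edgeR). The falls in clone 1 and HMC-1.1 rest on 17 to 50 counts in each library and were not called when tested against 1.5-fold itself (adjusted p = 0.16 and 0.12, edgeR's glmTreat) or with limma on log2(FPKM + 1), where they came to -0.53 and -0.54. Its neighbour GZMH, the closest relative of GZMB in the cluster, averaged 0.0367 FPKM in clone 2, on 3.01 counts in all. GZMH was listed at 0 in the other sublines and was not tested.

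**Figure D4:**
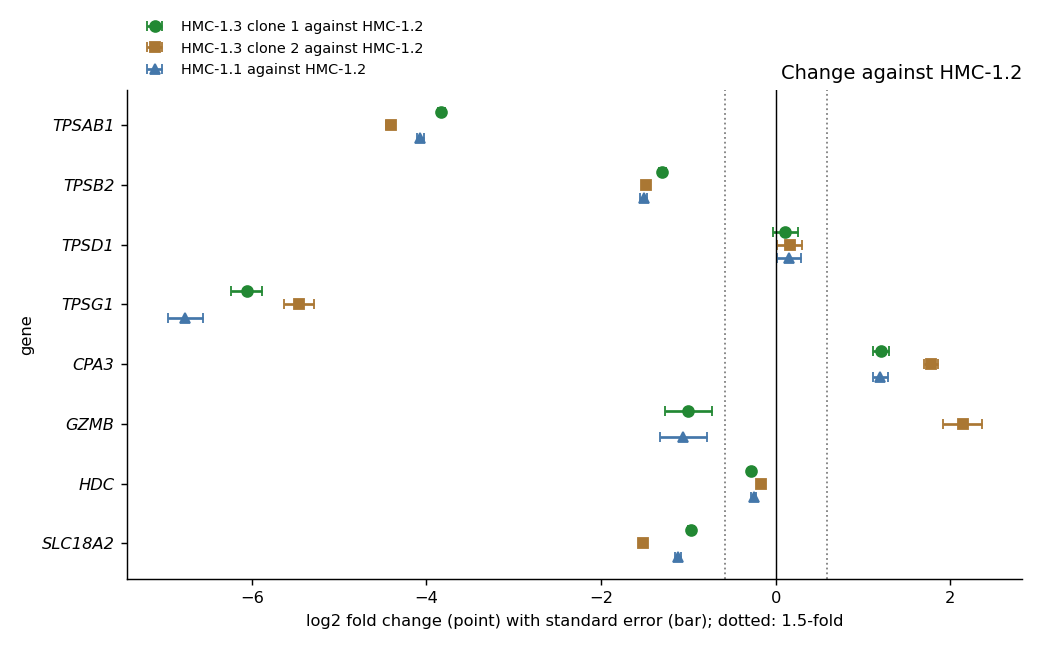
Log2 fold change against HMC-1.2 (x axis, point with SE) of the 8 tested genes (y axis) in clone 1, clone 2 and HMC-1.1, with dotted lines at 1.5-fold. TPSAB1, TPSB2, TPSG1 and SLC18A2 lie left of the lines in all 3 comparisons and CPA3 right of them, HDC and TPSD1 lie between the lines, and GZMB lies right of them in clone 2 only.

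The amine genes were among the most abundant of the set. HDC (ENSG00000140287.10, chr15:50241947-50265965, minus strand), the enzyme that makes histamine, had 966, 1024 and 1037 FPKM in HMC-1.2, against 814, 904 and 839 in HMC-1.1 cells, 847, 870 and 851 in clone 1 and 934, 867 and 884 in clone 2. HMC-1.2 was above all other libraries, and the other sublines overlapped. The difference from HMC-1.2 was 1.21-fold in clone 1 (adjusted p = 5e-07, edgeR), 1.13-fold in clone 2 (adjusted p = 0.00015, edgeR) and 1.19-fold in HMC-1.1 (adjusted p = 1.9e-06, edgeR), under the fold that was required for a call.

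SLC18A2 (ENSG00000165646.12, chr10:117241093-117279430, plus strand), which encodes VMAT2, had 329, 318 and 331 FPKM in HMC-1.2, 154, 156 and 152 in HMC-1.1 cells, 178, 165 and 177 in clone 1 and 114, 113 and 119 in clone 2. The order was HMC-1.2, clone 1, HMC-1.1 and clone 2, with no overlap between neighbours. SLC18A2 fell, with log2 fold changes of -0.97 ± 0.03 in clone 1 (SE, adjusted p = 4.5e-14, edgeR), -1.52 ± 0.03 in clone 2 (adjusted p = 1.3e-16, edgeR) and -1.12 ± 0.03 in HMC-1.1 (adjusted p = 7.1e-15, edgeR). Of the gene that makes histamine and the gene that stores it, HDC was thus within 1.21-fold of HMC-1.2 and SLC18A2 from 1.95-fold to 2.87-fold below it.

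Of 17 genes of amine synthesis, transport, breakdown and sensing, HDC and SLC18A2 included, 10 were tested. Against HMC-1.2, 1 was higher and 3 were lower in clone 1, 0 were higher and 4 lower in clone 2, and 1 was higher and 4 were lower in HMC-1.1. Over all genes the shares called were 20.0%, 16.5% and 17.6%. The lower genes included the histamine receptor genes HRH1 and HRH2 in clone 2 (-0.61 and -0.62 on the log2 scale, adjusted p of 0.00029 and 3.2e-05, edgeR). In HMC-1.1 they included HRH4 (-1.65, adjusted p = 0.021, edgeR), on 3 to 7 counts in each HMC-1.1 library. DDC, which makes serotonin and dopamine from their amino acid precursors, averaged 5.53 ± 0.777 FPKM in HMC-1.2 cells, 0.607 ± 0.0611 in HMC-1.1 cells, 0.913 ± 0.316 in clone 1 and 1.27 ± 0.111 in clone 2 (SD, n = 3). It fell, with log2 fold changes of -3.38 in clone 1 (adjusted p = 4e-10, edgeR), -2.05 in clone 2 (adjusted p = 6.1e-08, edgeR) and -3.43 in HMC-1.1 (adjusted p = 4.1e-10, edgeR). SLC18A1, the other vesicular monoamine transporter, was listed at 0 in every library, so SLC18A2 was the vesicular transporter with a measured level. HNMT, which breaks histamine down inside cells, averaged 0.157 ± 0.191 FPKM in HMC-1.2, on 4 counts in all, and was listed at 0 in the other sublines. Of the other breakdown genes, AOC1 rose by 1.41 on the log2 scale in clone 1 and by 1.64 in HMC-1.1 (adjusted p of 0.0032 and 0.00094, edgeR). MAOA fell by 1.25 and 1.26 in the same sublines (adjusted p of 3.6e-13 and 3.5e-13, edgeR). Neither gene was called in clone 2, where both went in the same direction. AOC1 stood there at 0.91 (adjusted p = 0.056, edgeR) and MAOA at -0.33 (adjusted p = 9.4e-06, edgeR), under 1.5-fold for MAOA. AOC1 averaged at most 0.507 FPKM and had 9 to 15 counts in each HMC-1.2 library. TPH1, which makes serotonin from tryptophan, averaged between 0.0867 and 0.153 FPKM.

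**Figure D5:**
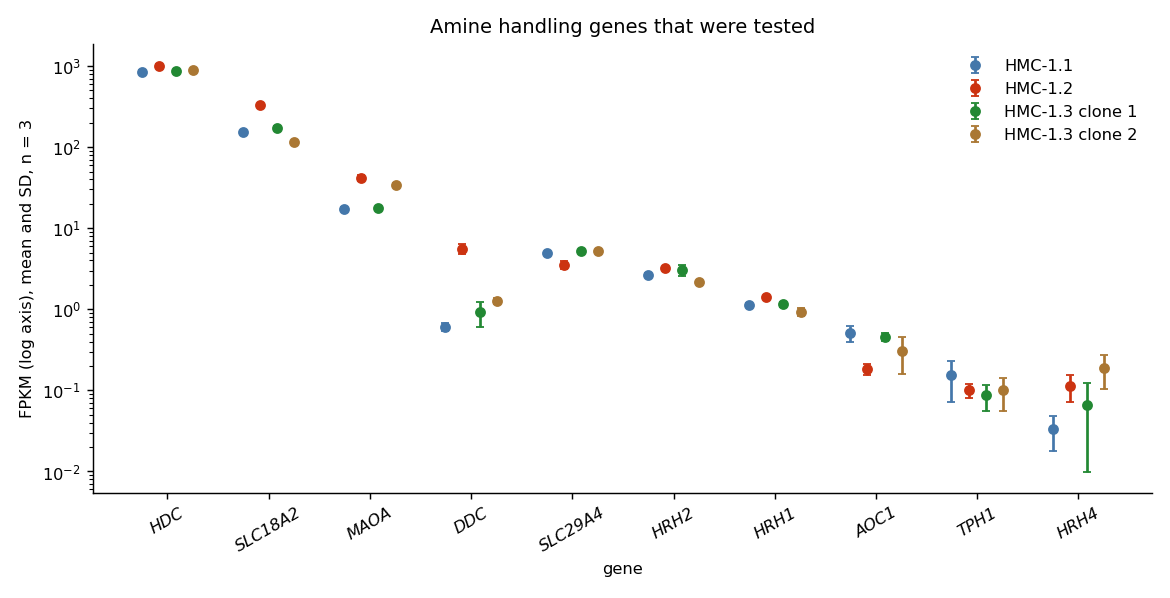
FPKM (y axis, log axis, mean and SD of 3 libraries) of the 10 tested amine handling genes (x axis) in the 4 sublines. HDC averages 1009 in HMC-1.2 and from 852 to 895 on average in the other sublines, SLC18A2 and DDC are highest in HMC-1.2, and the histamine receptor genes stay under 4.

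Between sublines other than HMC-1.2 fewer of the genes differed. Clone 1 and HMC-1.1, which carry different KIT variants, differed in 0 of the 8 genes by the call rule in edgeR and in 0 with DESeq2, beside 1.01% of all genes. An unadjusted p under 0.05 was reached by 3 of the 8, beside 5004 of all 15944 genes. Those 3 were TPSAB1, TPSB2 and SLC18A2, with log2 differences of 0.23, 0.21 and 0.15 (clone 1 minus HMC-1.1) and adjusted p of 0.0022, 0.0049 and 0.0024 (edgeR). For the other 5, intervals of the difference ran from -0.31 to 0.24 for TPSD1, from -0.03 to 1.43 for TPSG1, from -0.14 to 0.16 for CPA3, from -0.51 to 0.64 for GZMB and from -0.08 to 0.03 for HDC.

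Clone 2 and HMC-1.1 differed in 2 of the 8 genes, beside 8.19% of all genes. GZMB was higher in clone 2 by 3.20 ± 0.23 on the log2 scale (SE, adjusted p = 1.3e-08, edgeR), and TPSG1 by 1.3 ± 0.34 (adjusted p = 0.006, edgeR). The TPSG1 difference rests on 4 to 17 counts in each library and was not called when tested against 1.5-fold itself (adjusted p = 0.19, edgeR's glmTreat) or with limma on log2(FPKM + 1), where it came to 0.28. TPSAB1 (-0.34), SLC18A2 (-0.40) and CPA3 (0.58) differed in log2 between clone 2 and HMC-1.1 by less than 1.5-fold, with adjusted p of 2.9e-05, 1.8e-08 and 1.2e-05 (edgeR).

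Clone 1 and clone 2, which carry the same KIT variant, differed in GZMB, beside 12.6% of all genes. GZMB fell by 3.14 ± 0.23 on the log2 scale from clone 2 to clone 1 (SE, adjusted p = 9e-09, edgeR). TPSAB1 (0.57), CPA3 (-0.57) and SLC18A2 (0.55) differed in log2 between clone 1 and clone 2 by just under the 1.5-fold required, with adjusted p of 3.1e-08, 7.3e-06 and 1.8e-10 (edgeR). Leaving out single libraries of the clones brought TPSAB1 to as much as 0.61 (without clone 2 replicate 1) and CPA3 to -0.66 (without clone 1 replicate 1), past the fold required for a call.

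Other genes that act on the granule contents were counted as lists. Their calls stand beside 20.0%, 16.5% and 17.6% of all genes called in clone 1, clone 2 and HMC-1.1 against HMC-1.2. Of 12 genes that activate proteases or build the granule matrix, all 12 were tested, and against HMC-1.2 1 was higher and 4 were lower in clone 1, 0 higher and 2 lower in clone 2, and 1 higher and 4 lower in HMC-1.1. NDST2, the enzyme that begins the sulfation of heparin in mast cells, averaged 46.2 ± 1.28 FPKM in HMC-1.2 cells, 22.8 ± 2.00 in HMC-1.1 cells, 25.9 ± 0.210 in clone 1 and 19.2 ± 0.467 in clone 2, and fell, with log2 fold changes of -0.82, -1.26 and -1.04 in clone 1, clone 2 and HMC-1.1 (adjusted p of 1.7e-11, 7.3e-14 and 8.5e-13, edgeR). CHSY1, a chondroitin synthase, fell, with log2 fold changes of -0.74, -0.69 and -0.89 (adjusted p of 8.5e-12, 2.4e-11 and 8.6e-13, edgeR). SRGN, the core protein of the granule proteoglycan, averaged 203 FPKM in HMC-1.2 and 153 to 168 in the others, and CTSC, the protease that activates chymase, cathepsin G and granzymes, averaged 88.2 and 97.1 to 110 FPKM, both under 1.5-fold.

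Of 17 genes in a list of leukocyte granule proteins and other proteases, 4 were tested. Against HMC-1.2, 1 was higher and 2 were lower in clone 1, and 0 were higher and 2 lower in both clone 2 and HMC-1.1. The lower genes were GZMM and PRF1, and the higher one was PRSS27, a serine protease gene (0.85 on the log2 scale, adjusted p = 0.018, edgeR), named after its values were seen. PRF1, which encodes the pore-forming perforin, averaged 260 ± 3.46 FPKM in HMC-1.2 cells, 42.7 ± 4.83 in HMC-1.1 cells, 43.3 ± 1.90 in clone 1 and 43.3 ± 4.15 in clone 2, and fell, with log2 fold changes of -2.69, -2.62 and -2.65 in clone 1, clone 2 and HMC-1.1 (adjusted p of 9.8e-17, 1e-16 and 1.1e-16, edgeR). GZMM, another granzyme gene, averaged 13.5 ± 0.680 FPKM in HMC-1.2 and at most 0.267 in the others, and fell, with log2 fold changes of -5.71, -7.48 and -5.83 (adjusted p of 8.7e-13, 2.8e-13 and 7.7e-13, edgeR). The size of these folds is uncertain, since GZMM had 290 to 331 counts in each HMC-1.2 library and 1 to 10 in each of the others. PRF1 thus did not follow GZMB, which was highest in clone 2.

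Of 17 regulators known from granule genes or mast cell development, all 17 were tested and only CEBPA was called, in each comparison against HMC-1.2. CEBPA, a transcription factor of granulocytes, averaged 29 ± 1.01 FPKM in HMC-1.2 cells, 4.70 ± 0.129 in HMC-1.1 cells, 5.92 ± 0.379 in clone 1 and 6.20 ± 0.131 in clone 2, and fell, with log2 fold changes of -2.35, -2.25 and -2.67 in clone 1, clone 2 and HMC-1.1 (adjusted p of 5.5e-16, 8.4e-16 and 1.7e-16, edgeR). MITF, which drives granule genes in mast cells, had log2 fold changes of 0.30, 0.20 and 0.17, and GATA2 0.10, 0.15 and 0.12, all under 1.5-fold. STAT5A came closer to the required fold without being called, with 99.6 FPKM in HMC-1.2 and 66.2 to 69.6 elsewhere. Its log2 fold changes were -0.58, -0.5 and -0.55 (adjusted p of 1.9e-11, 1.7e-10 and 4.4e-11, edgeR).

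The mast cell label was checked against 11 markers, of which 10 were tested. KIT averaged 356 to 450 FPKM and SIGLEC6 225 to 310 FPKM, while MS4A2, a chain of the high-affinity IgE receptor, averaged at most 0.353 FPKM and the mast cell receptor MRGPRX2 at most 0.02. Against HMC-1.2, 1 marker was higher and 5 were lower in each of the other sublines. Of all genes, 20.0%, 16.5% and 17.6% were called in clone 1, clone 2 and HMC-1.1. IL1RL1, MS4A2, ENPP3 and LTC4S were lower in each of them. FCER1A, at most 1.09 FPKM on average, was lower in clone 1 and HMC-1.1 (-2.89 and -2.83 on the log2 scale). In clone 2 it was not called (0.06), and HPGDS was lower there (-1.24, adjusted p = 1.8e-06, edgeR). SIGLEC8, an inhibitory receptor of mast cells and eosinophils, averaged 5.98 FPKM in HMC-1.2 and 48.0, 45.1 and 21.2 in HMC-1.1 cells, clone 1 and clone 2, and rose by 2.75, 1.72 and 2.84 on the log2 scale in clone 1, clone 2 and HMC-1.1 (adjusted p of 2.4e-18, 1.6e-15 and 1.5e-18, edgeR). ENPP3, a basophil and mast cell surface enzyme, averaged 10.7 FPKM in HMC-1.2 and at most 0.687 elsewhere, and LTC4S, which makes leukotriene C4, averaged 12.9 and at most 2.17.

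Markers of other cells moved with the tryptases in part. Of 6 basophil and eosinophil markers, 4 were tested, and compared with HMC-1.2 the lower ones numbered 4 for clone 1, 4 for clone 2 and 3 for HMC-1.1. Of all genes, 8.18%, 8.51% and 7.52% were called lower in these comparisons. PRG3 was near the threshold in clone 1 and clone 2 (adjusted p of 0.045 and 0.03, edgeR) and was not called in HMC-1.1. The summed level of the 6 markers was 396 to 417 FPKM in the HMC-1.2 libraries, 106 to 117 in HMC-1.1 cells, 90.1 to 98.0 in clone 1 and 59.9 to 65 in clone 2. CLC and PRG2, which encode the Charcot-Leyden crystal protein and the eosinophil major basic protein, made up nearly all of it, with 182 and 221 FPKM in HMC-1.2. EPX and RNASE3, also eosinophil granule genes, averaged 0.687 and 0.347 FPKM there, and CCR3 was listed at 0. The part of these transcripts in the tryptase result was not tested. The 8 T and NK cell markers summed to 0.23 to 0.73 FPKM in clone 2, where GZMB was highest, 0.05 to 0.15 in clone 1, 0.13 to 0.88 in HMC-1.2 and 0.22 to 0.40 in HMC-1.1. Of these, CD8A and NCR1 had 0 counts in every library and KLRD1 had 2 counts in all, while NKG7, a granule membrane gene of cytotoxic cells, had 27 counts in clone 2, 3 in clone 1, 8 in HMC-1.2 and 13 in HMC-1.1. The part of these transcripts in the GZMB result was not tested. The 10 neutrophil and monocyte markers summed to 1.74 to 2.96 FPKM, with MPO, S100A8, S100A9 and FCGR3B listed at 0, and the 5 B cell markers to 2.86 to 6.18 FPKM.

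Genes whose levels ran most like those of the set were found by Pearson's r of log2 CPM over the 12 libraries, given here as a description, since the 12 values of each gene come from the same libraries and form 4 groups of 3. TPSG1 was followed most closely by CEBPA (r = 0.996), ENPP1 (0.994) and STON2 (0.993). TPSAB1 was followed by FAM117A, RACK1 and PDLIM7, each with r = 0.998, and TPSB2 by HMG20B and MS4A3 (0.995) and TP53I11 (0.994). SLC18A2 was followed by IL5RA and LAIR1 (0.997) and FERMT3 (0.995), of which FERMT3 averaged 126 FPKM in HMC-1.2 and 1.1 to 3.11 elsewhere. CPA3 was followed by SPNS1 (0.994), TSPAN7 and CMTM5 (0.992 each), and HDC by NUP62 (0.985), RRP36 (0.979) and GADD45B (0.97). GZMB was followed by VGF (0.984), ABHD3 (0.982) and INO80C (0.969), and VGF averaged 54.1 FPKM in clone 2 and 9.61 to 17.2 in the other sublines. TPSD1, which overlapped between all sublines, had lower values, up to 0.931 with AGAP6.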

How the data were processed

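Polyadenylated RNA of 12 HMC-1 subline cultures, 3 in each of 4 groups, had been sequenced with a stranded kit, and samples were grouped by their titles. Before deposit, the authors ran Cutadapt 2.10 for trimming, STAR 2.5.3 for alignment to hg38, Picard for duplicates and RSEM 1.3.0 for counting. The deposited expected counts are estimates per gene without normalization, and 7.39% of them were not whole numbers. The deposited FPKM take transcript length and library size into account, and each of the 12 count columns matched the FPKM column of its own sample best. The methods name Gencode Release 39, while positions and transcripts were taken from Gencode 44 by the identifier without its version.

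Counts were rounded and tested with edgeR 4.0.16 in R 4.3.3 (quasi-likelihood test, TMM factors of 0.974 to 1.02, filterByExpr, 4 groups in the model, no covariate), with Benjamini-Hochberg adjustment over 15944 genes in each comparison. A call needed an adjusted p under 0.05 and a fold over 1.5. The method was tested on simulated data. The alternatives were DESeq2 1.42.0, no filter on low counts, only the compared groups in the model, a term for resent libraries, a replicate block, glmTreat, limma 3.58.1 on log2(FPKM + 1) and log2(FPKM + 0.1), TPSAB1, TPSB2 and TPSD1 summed, and each library left out in turn. Replicate numbers did not pair the samples. Depth limits the values under about 10 counts, and the intervals of the CTSG ratios cover counting error only, while those of log2 fold changes come from the edgeR fit.

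The 10 genes and the lists were chosen with earlier results of these data known. All 10 are named, with at most 4 called genes of each list by the mean change of both clones, defining markers, the neighbouring protein-coding genes and the 3 genes most alike in level among those with a mean of at least 1 CPM. Further genes of the lists, named for their function, were picked after their values were seen. Of the 144 genes listed, VAMP7 was on more than 1 row and was left out, and 1 neighbouring gene is not reported here.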

Additional observations from a re-analysis of the deposited data

Results flagged for a closer look

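In 6 of the 8 tested genes the change from HMC-1.2 differed between the edited clones, by edgeR's test of clone 1 against clone 2, which is the test of that difference, at an adjusted p under 0.05. By the same rule 50.2% of all genes differed. GZMB differed most, with a log2 difference of -3.14 (clone 1 minus clone 2, adjusted p = 9e-09, edgeR), and it was below HMC-1.2 in clone 1 and above it in clone 2. TPSAB1 differed by 0.57, SLC18A2 by 0.55 and TPSB2 by 0.19, each with the larger fall in clone 2. CPA3 differed by -0.57, with the larger rise in clone 2. HDC differed by -0.11, with the smaller difference from HMC-1.2 in clone 2. Only GZMB passed 1.5-fold, and each of the other 5 kept the same direction against HMC-1.2 in both clones. Each HMC-1.3 group is 1 clone, so differences that arose in editing, cloning and later culture cannot be told apart.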

How the results depend on the processing

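Of 701 alternative values of single genes, 664 kept their direction and their side of the threshold, 21 changed sign, 10 became calls and 6 lost one. With a replicate block the counts of called genes were 6, 6 and 6 against HMC-1.2 for clone 1, clone 2 and HMC-1.1, and 0, 2 and 1 for the remaining comparisons, as without it. Same-numbered libraries had correlations of their deviations from -0.0433 to 0.0964, so the numbers were not taken as pairs, and the block changed no call. The called genes between clone 1 and HMC-1.1 came to 1 (TPSG1) with limma on log2(FPKM + 0.1), those between clone 2 and HMC-1.1 to 1 with glmTreat or with limma on log2(FPKM + 1), and those between the clones to 2 with limma on log2(FPKM + 0.1) and from 1 to 3 when single libraries were left out. The libraries that added calls between the clones were replicates 1 and 3 of clone 1 and replicates 1 and 2 of clone 2, of which the last gave 3 calls. Without HMC-1.1 replicate 3 or clone 2 replicate 2, or with a term for resent libraries, CPA3 passed 1.5-fold between clone 2 and HMC-1.1 (0.63, 0.61 and 0.59). The falls of GZMB in clone 1 and HMC-1.1 and the TPSG1 difference between clone 2 and HMC-1.1 were lost with glmTreat and limma on log2(FPKM + 1). By construction, glmTreat tests against the 1.5-fold limit itself and a pseudocount of 1 shrinks the changes of low values.

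All changes of sign were in differences that were not called. With single libraries left out, the log2 difference of TPSD1 ran from -0.01 to 0.33 between HMC-1.1 and HMC-1.2, from -0.23 to 0.12 in clone 1 against HMC-1.1 and from -0.17 to 0.18 in clone 2 against HMC-1.1. In clone 1 against HMC-1.1, CPA3 ran from -0.08 to 0.06 and GZMB from -0.18 to 0.49, and in clone 2 against HMC-1.1 TPSB2 ran from -0.01 to 0.05. In clone 1 against HMC-1.1, TPSD1 came to 0.002 with a term for resent libraries, CPA3 to -0.001 with DESeq2, -0.05 with limma on log2(FPKM + 1), or -0.06 at a pseudocount of 0.1, and HDC to 0.01 on both limma scales. In clone 2 against HMC-1.1, TPSB2 came to -0.002 on both limma scales. The cause of the other changes was not tested. Depth limits CMA1 and CTSG, which had at most 10 counts in a library.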

Other observations

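Of 16 protease inhibitors, 11 were tested, and against HMC-1.2 1 was higher in clone 1, 2 were higher in clone 2 and 1 was lower in HMC-1.1. In these comparisons 20.0%, 16.5% and 17.6% of all genes were called. The genes called were CST7 in clone 1 (0.90 on the log2 scale, adjusted p = 2.6e-12, edgeR), CST3 and TIMP3 in clone 2 (0.86 and 1.37, adjusted p of 7.5e-12 and 1.4e-13, edgeR) and SERPINB8 in HMC-1.1 (-0.78, adjusted p = 0.00066, edgeR), named after their values were seen. CST7 and CST3 encode cystatins, which block cysteine proteases. SERPINB9, the inhibitor of granzyme B, averaged at most 0.0133 FPKM.

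Of 20 genes of granule secretion, 17 were tested, and against HMC-1.2 0 were higher and 1 was lower in clone 1, 1 was higher and 2 were lower in clone 2, and 0 were higher and 2 lower in HMC-1.1. The shares called over all genes were 20.0%, 16.5% and 17.6%. These counts are close to that share in clone 2 and below it in clone 1 and HMC-1.1. RAB27B, a GTPase of granule docking, averaged 10.0 ± 1.73 FPKM in HMC-1.2 cells, 6.13 ± 0.645 in HMC-1.1 cells, 5.11 ± 0.524 in clone 1 and 15.0 ± 0.569 in clone 2. It fell by 0.92 on the log2 scale in clone 1 and by 0.66 in HMC-1.1 and rose by 0.67 in clone 2 (adjusted p of 7.2e-11, 5.2e-09 and 1.9e-09, edgeR), and its level was 3.01-fold apart between the clones (adjusted p = 1.2e-13, edgeR), higher in clone 2. RAB3D and SYT2 differed between the clones in the opposite direction, by 1.32 and 1.64 (clone 1 minus clone 2, adjusted p of 8e-09 and 0.01, edgeR), and were named after their values were seen. The SYT2 difference rests on 8 to 16 counts in each library of clone 1 and 3 to 7 in each of clone 2.

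Those protein-coding neighbours of the other genes that were tested had small differences, apart from STXBP6, which lies 175187 bases from the GZMB cluster. STXBP6 averaged 17.9 ± 0.0781 FPKM in HMC-1.2 and 31.4 to 39.5 elsewhere. It rose by 1.05, 1.17 and 1.02 on the log2 scale in clone 1, clone 2 and HMC-1.1 (adjusted p of 3.6e-12, 8.3e-13 and 6.3e-12, edgeR). Neighbours with too few counts were not tested.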
